A study of Mus musculus with 4 samples.

Results

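Plasmacytoid dendritic cells (pDCs) were 307 of the 32396 filtered CD45+ cells of subcutaneous MC38 tumours. Members were chosen by measured values, the raw unique molecular identifiers (UMIs, counted transcript molecules) of the gate genes: at least 2 UMIs of Siglech, at least 1 of Tcf4, 0 of Cd3e, Cd3d, Ncr1 and Cd209a, at most 1 of Cd79a, under 10 of C1qa, C1qb and C1qc together, and not both Ccr7 and Fscn1 detected. Cells with under 300 genes, or with over 15% of their UMIs from mitochondrial genes, had been left out. The MC38 line is a mouse colon carcinoma line. The tumours grew from 100000 injected cells in mice of 8 weeks and were taken on day 16 without treatment. The mice were wild type (WT, 2 libraries) or carried a conditional knockout of Ufl1 (cKO, 2 libraries), the ligase for UFM1, a ubiquitin-like modifier. T cells are named as the site of the ablation in the title of the series, and the labels used here name neither the Cre driver nor the deleted exons, nor do they give the sex of the mice. Tumours were digested with collagenase, frozen as single cells and thawed before 3' capture. The labels do not say that the 2 libraries of a genotype came from separate mice, so p-values measure only the spread between these libraries. In WT this spread may be technical. The cKO libraries differ in sex-linked genes, as given below, so they did not come from the same mouse. Their spread includes that difference and may be technical in part.

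The gate held 88 and 90 cells in WT 1 and WT 2, and 50 and 79 in cKO 1 and cKO 2. Their summed UMIs were 794462, 821110, 482401 and 728009, and the median per cell was 8560, 8186, 10123 and 8443 UMIs. All values of the 4 libraries below stand in this order: WT 1, WT 2, cKO 1, cKO 2. The cells were compared with 162 type 1 conventional dendritic cells (cDC1, gated on Xcr1 and Clec9a), 902 Cd209a-positive cDC2, 290 migratory dendritic cells (Ccr7 and Fscn1) and 856 B cells of the same libraries. Levels are CPM (the UMIs of a gene scaled to a common total, so that all genes of a class and library sum to the same value) of the summed UMIs of a class in a library. They are compared within a gene, between classes or libraries, and not between genes. Since summed UMIs are scaled to a total, fewer transcripts per cell and fewer cells with a transcript cannot be told apart in them.

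Some features of the libraries bear on every result below. In pDCs of cKO 2 Xist was at 595 CPM, and Ddx3y, Uty, Kdm5d and Eif2s3y had 0 UMIs. In pDCs of the other 3 libraries Xist had no UMI and Eif2s3y had 43 to 71, so sex-linked genes differ inside the cKO group. Over all filtered cells Xist was at 0.906, 0.299, 0.126 and 297 CPM, and Eif2s3y at 61.6, 53.7, 63.2 and 0.239 CPM. Between 85 and 104 cell barcodes were shared by most pairs of libraries, and 479 by WT 1 and cKO 2. No barcode was gated as a pDC in more than 1 library, and 297 pDCs remained without any shared barcode. Lyz2, a myeloid lysozyme gene, reached 5 or more UMIs in 31 pDCs, whose median was 16624 UMIs against 8276 in the other 276. Its summed level was 788, 825, 240 and 2337 CPM. The macrophage list as a whole (10 genes, 5 tested) summed to 1446, 1504, 960 and 3096 CPM, highest in cKO 2. The part of such cells in the results was not tested, beyond the counts and fold changes without them given below.

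pDCs are a rare lineage of dendritic cells that recognise viral and self nucleic acids through endosomal Toll-like receptors and can release large amounts of type I interferon. Their identity is maintained by the E protein TCF4 (E2-2), which binds E-box motifs and opposes the conventional dendritic cell programme driven by ID2. Resting pDCs have a well-developed secretory apparatus and present antigen poorly, and in tumours they have often been described as weak interferon producers.

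The gate genes describe the chosen cells and support nothing further. Siglech, a sialic acid-binding surface receptor of pDCs, stood at 1630, 1609, 1718 and 1602 CPM, and at a mean of at most 4.90 CPM in every comparison class. Tcf4 was at 954, 803, 879 and 894 CPM. Among the genes that the gate did not use, Ccr9, the gut- and thymus-homing receptor given as the third marker, was at 701, 715, 599 and 532 CPM. Ccr9 means were 0.734 CPM in cDC1, 4.61 in cDC2, 0.532 in migratory dendritic cells and 1.08 in B cells, so no library of another class came near any pDC library. At least 1 Ccr9 UMI was found in 87.9% of pDCs (61.9% after thinning each cell to 2000 UMIs, 302 cells kept) and in 3.88% of cDC2 (1.01% thinned, 893 cells kept), although cDC2 were deeper, with medians of 11405 to 13468 UMIs. The label therefore matches its independent markers, with an edge of weaker cells that is described below.

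Promoter sequence is shown for 3 genes high in these cells, since TCF4 is a gate gene and E-boxes are its class of motif. The 3 were picked because their windows hold CACCTG, so the display is no sample of the named genes. Windows run from 250 to 11 bases before the annotated start, 5' to 3' on the gene's strand, taken from RefSeq on build GRCm38.p6. Capitals mark CACCTG, its complement CAGGTG, or CAGCTG. Siglech lies at chr7:55767934-55768173 on the plus strand, Klk1 at chr7:44225110-44225349 on the plus strand and Pgam2 at chr11:5803807-5804046 on the minus strand.
Siglech: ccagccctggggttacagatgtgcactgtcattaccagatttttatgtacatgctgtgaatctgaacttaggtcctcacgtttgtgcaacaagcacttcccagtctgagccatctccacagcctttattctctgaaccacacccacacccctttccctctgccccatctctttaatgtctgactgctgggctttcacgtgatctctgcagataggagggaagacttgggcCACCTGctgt
Klk1: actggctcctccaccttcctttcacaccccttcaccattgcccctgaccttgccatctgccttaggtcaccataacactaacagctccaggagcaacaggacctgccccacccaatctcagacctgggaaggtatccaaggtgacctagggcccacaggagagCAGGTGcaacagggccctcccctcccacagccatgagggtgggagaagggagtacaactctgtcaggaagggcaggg
Pgam2: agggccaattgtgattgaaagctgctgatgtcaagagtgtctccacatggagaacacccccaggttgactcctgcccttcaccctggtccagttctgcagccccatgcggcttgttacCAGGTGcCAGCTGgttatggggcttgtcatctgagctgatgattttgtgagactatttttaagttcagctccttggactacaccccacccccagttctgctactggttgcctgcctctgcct
The first base of CACCTG or its complement lies 20 bases before the start of Siglech, 87 before Klk1 and 132 before Pgam2. Of 16 genes searched (Siglech and the 15 named below as higher in pDCs), 9 matched a window and 5 held CACCTG on either strand. Of the 5, the remaining genes were Ccr9, at 85 bases, and Paqr5, at 212 and 18 bases. The windows of Dntt, Klk1b27 and Ldhb, not shown, held neither CACCTG nor CAGCTG, and that of Atp2a1 held CAGCTG only. Over all 32851 windows 16.6% held CACCTG, against 14.1% of the 7950 windows of tested genes and 20.2% of the 526 windows of genes higher in pDCs than in all 4 classes. For CAGCTG the same shares were 12.4%, 10.9% and 11.2%. A match describes letters in a window, not a bound site.

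Across 7750 tested genes, 24.0% were called higher and 24.3% lower in pDCs than in cDC1 (1861 and 1884 genes, edgeR quasi-likelihood test with Benjamini-Hochberg adjusted p under 0.05). Against cDC2 20.9% were higher and 22.9% lower, against migratory dendritic cells 25.1% and 25.5%, and against B cells 22.5% and 22.0%. In all 4 comparisons 478 genes (6.17%) were higher and 157 (2.03%) lower. Median log2 fold changes over all tested genes lay between -0.04 and 0.03. In either direction 48.3%, 43.8%, 50.6% and 44.4% were called against cDC1, cDC2, migratory cells and B cells. These shares are the background for every count of called list members between classes below. The genes of the gates, 16 in all, were not tested.

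The 15 genes with the widest margin above all 4 classes, among those of at least 50 CPM, mix enzymes, surface proteins and lymphoid genes. Cox6a2, the heart and muscle isoform of a cytochrome c oxidase subunit (chromosome 7, 128205435 to 128206387 in GENCODE M21), was at 885, 1187, 1372 and 938 CPM. It had 0 UMIs in cDC1 and in migratory dendritic cells, at least 766-fold and 807-fold lower against 3 counts over each class, 1 UMI in all B cells, and 0.768 ± 0.790 CPM in cDC2 (SD, n = 4). Klk1, tissue kallikrein, was at 755, 734, 498 and 426 CPM, at least 444-fold above cDC1 and 821-fold above B cells, with 3 UMIs in all cDC2 and 1 in all migratory dendritic cells. Its neighbour in the kallikrein cluster, Klk1b27, was at 62.9, 119, 60.1 and 48.1 CPM, and reads of this multigene family may be split between near-identical members. Both genes were detected in pDCs of every library and were almost without UMIs elsewhere.

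Dntt encodes terminal deoxynucleotidyl transferase, the enzyme that adds nucleotides during antigen receptor rearrangement. Its level was 140, 181, 147 and 109 CPM in pDCs, and not 1 UMI was counted in the 4 other classes. Against 3 counts over a class it was at least 104-fold higher than in cDC1, 556-fold than in cDC2, 109-fold than in migratory cells and 192-fold than in B cells. A Dntt UMI was present in 50.8% of pDCs (24.8% thinned). Paqr5, a membrane progestin receptor, was at 167, 185, 207 and 140 CPM, and Atp2a1, a calcium pump of the sarcoplasmic reticulum, at 191, 166, 166 and 121 CPM. Pgam2, the muscle phosphoglycerate mutase, was at 44.1, 36.5, 53.9 and 68.7 CPM and Ldhb, a lactate dehydrogenase subunit, at 69.2, 71.9, 99.5 and 78.3 CPM. Pgam2, Dntt, Sh3bgr, D13Ertd608e and Klk1b27 have almost no UMIs in the other classes, and DESeq2 did not call them in 19 comparisons (adjusted p from 0.0640 to 0.224), with Dntt still called against cDC2.

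Cd8b1 and Cd4, co-receptor genes of T cells, were also among the 15. Cd4 was at 75.5, 110, 82.9 and 72.8 CPM, and Cd8b1 varied more, at 325, 614, 487 and 166 CPM. Cd8a, from the identity list, was at 257, 369, 381 and 273 CPM, with log2 fold changes of 5.10 ± 0.41 against cDC1 and 7.18 ± 0.45 against B cells. Cd8b1 was the 1 member of the T cell list (10 genes) that was tested, and the gate allowed no Cd3e or Cd3d UMI. The list summed to 347, 638, 518 and 194 CPM, and Cd8b1 made up most of it in each library. The remaining named genes were Cdh5, the vascular endothelial cadherin, at 75.5, 43.8, 78.8 and 31.6 CPM, Sh3bgr at 144 to 184 CPM, D13Ertd608e at 34.1 to 93.3 CPM and Gm21762 at 188 to 311 CPM.

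**Figure D1:**
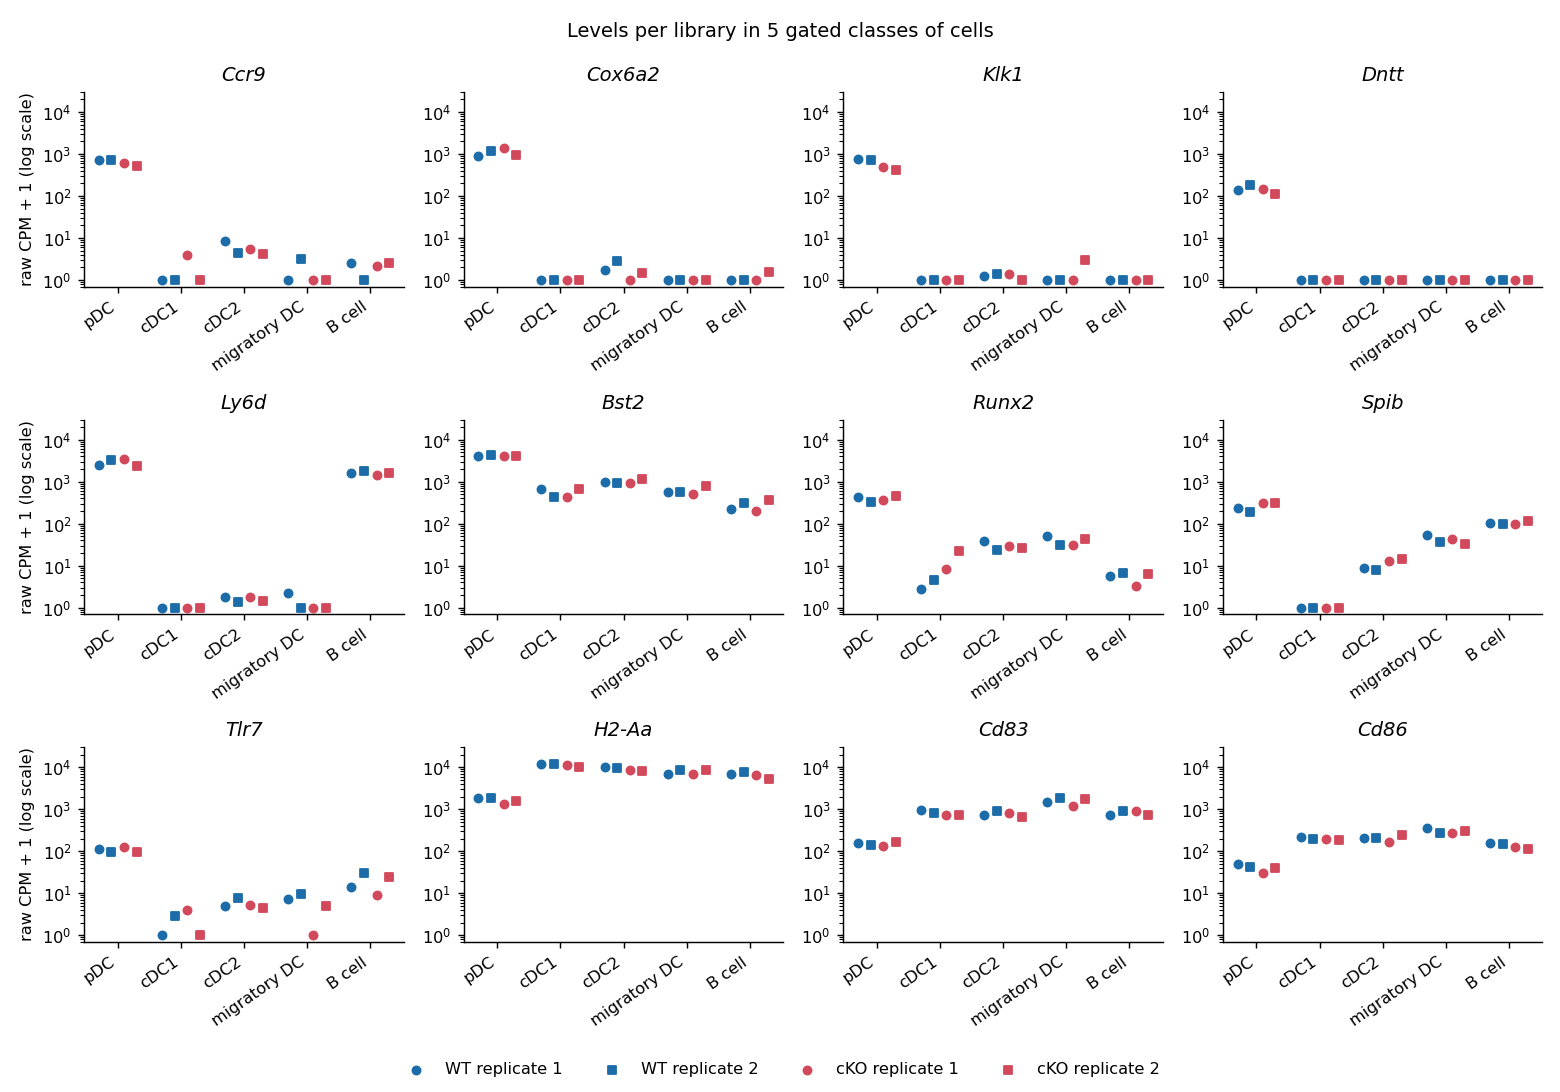
Levels of 12 genes in each library and class, as raw CPM plus 1 on a log axis, with circles and squares for replicate 1 and 2 and colour for genotype. Ccr9, Cox6a2, Klk1 and Dntt are high in pDCs and near 0 elsewhere, Ly6d is shared with B cells, and H2-Aa, Cd83 and Cd86 are lowest in pDCs.

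A list of 20 pDC identity genes was taken from general knowledge of the lineage with earlier results of these data in view. All 20 were tested, and 19 were called higher in all 4 comparisons, with median log2 fold changes of 5.95 against cDC1, 3.76 against cDC2, 4.93 against migratory dendritic cells and 4.58 against B cells. The exception was Plac8, at 4049, 3906, 3342 and 3823 CPM in pDCs and 2301 ± 278 CPM in cDC2, which did not pass against cDC2 (0.50 ± 0.24, adjusted p = 0.0957). Bst2 (tetherin, the target of the PDCA-1 antibody) was the steadiest, at 4034, 4208, 4181 and 4084 CPM, against 992 ± 102 CPM in cDC2 and 275 ± 77.1 CPM in B cells. Atp1b1, a sodium pump subunit, was at 482, 448, 524 and 482 CPM with 0 UMIs in cDC1. Lair1, an inhibitory collagen receptor, was at 566, 575, 620 and 426 CPM, and Pacsin1, an endocytic adaptor, at 284, 223, 278 and 213 CPM. Blnk, a B cell linker protein, was at 378, 326, 390 and 343 CPM against 239 ± 33.5 in B cells, a difference of 0.45 ± 0.18 that lost its call in 6 of 13 alternatives.

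Ly6d, a surface marker of early B-lineage and pDC-committed progenitors, set pDCs and B cells apart from the other dendritic cells. It was at 2521, 3271, 3476 and 2308 CPM in pDCs and 1593 ± 164 CPM in B cells, with 0 UMIs in cDC1 and 0.584 CPM in cDC2. The difference from B cells was a log2 fold change of 0.70 ± 0.12 (adjusted p = 7.45e-05). By cells the order was the other way although B cells were shallower, with a UMI in 85.0% of pDCs and 92.2% of B cells (77.2% and 82.5% thinned), so no order is read from these shares.

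Of 18 transcription factors of dendritic cell development, 5 were higher in pDCs than in all 4 classes, beside a background of 6.17%. Runx2, needed for pDC egress from bone marrow, was at 427, 332, 369 and 457 CPM, against 38.1 ± 10.1 CPM in migratory dendritic cells, the nearest class. Its smallest log2 fold change was 3.06 ± 0.19 and no library of another class reached 60 CPM. Spib, an ETS factor of pDCs and B cells, was at 235, 190, 315 and 304 CPM, against 101 ± 7.28 in B cells, 40.8 ± 9.85 in migratory cells, and 0 UMIs in cDC1. Bcl11a, which acts upstream of the pDC programme, was at 410, 325, 305 and 290 CPM, and 90.8 ± 13.8 CPM in cDC2. Tcf12, another E protein, was at 106, 106, 116 and 115 CPM, with log2 fold changes from 1.36 ± 0.20 (B cells) to 3.12 ± 0.29 (migratory cells). Ikzf1 was higher by only 0.32 ± 0.12 against cDC2, a call lost in 5 of 13 alternatives.

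Over the whole list 8, 7, 10 and 11 genes were higher and 4, 6, 7 and 1 lower than in cDC1, cDC2, migratory cells and B cells (medians 0.03, 0.08, 0.66 and 1.03). Other factors separated pDCs from some classes and not from others. Irf8, required by both pDCs and cDC1, was at 1692, 1821, 2104 and 1874 CPM in pDCs and 1660 ± 96.4 CPM in cDC1 (log2 fold change -0.11 ± 0.15, adjusted p = 0.573), and the libraries of both classes overlap. It was higher than in cDC2 by 3.66 ± 0.17. Id2, the antagonist of E proteins, was at 52.9, 73.1, 82.9 and 120 CPM, against 689 ± 93.1 CPM in cDC1 and 1053 ± 200 CPM in migratory cells, with every pDC library below every library of those classes. Batf3 and Zbtb46, factors of conventional dendritic cells, were lower than in cDC1 by 4.98 ± 0.30 and 2.51 ± 0.24 on the log2 scale. Zeb2, at 204, 184, 207 and 268 CPM, was not called different from cDC2 (0.13 ± 0.17).

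Nucleic acid sensing was described by 19 tested genes. Of these 7, 7, 9 and 11 were higher than in cDC1, cDC2, migratory cells and B cells, 3, 8, 6 and 2 were lower, and the medians were 0.33, -0.11, 0.61 and 0.98. Of all tested genes 24.0%, 20.9%, 25.1% and 22.5% were higher and 24.3%, 22.9%, 25.5% and 22.0% lower. The list as a whole was mixed, and 6 genes were higher in all 4 comparisons, beside 6.17% of all tested genes. Tlr7, the endosomal receptor for single-stranded RNA, was at 112, 95.0, 122 and 93.4 CPM, against 18.2 ± 9.57 CPM in B cells, the nearest class (2.32 ± 0.27, adjusted p = 1.38e-07). Tlr9, the receptor for unmethylated DNA, was at 57.9, 37.8, 47.7 and 50.8 CPM, against 24.7 ± 4.59 CPM in cDC2 (0.77 ± 0.17). Both receptors stood higher in each pDC library than the mean of any other class.

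The partners of these receptors were higher too. Unc93b1, the chaperone that carries them to endosomes, was at 817, 840, 840 and 784 CPM against 448 ± 17.0 CPM in cDC2. Slc15a4, an endolysosomal transporter needed for signalling downstream, was at 256, 234, 189 and 277 CPM, and 5430427O19Rik, the mouse gene of its adaptor TASL, at 70.5, 96.2, 68.4 and 104 CPM. Pld4, a nuclease that trims the ligands, was at 1080, 1184, 1146 and 1054 CPM against 336 ± 13.0 CPM in cDC2 and 353 ± 35.3 CPM in cDC1. Tlr3 and Irf5 ran the other way: Tlr3, the double-stranded RNA receptor of cDC1, had 2 UMIs in all pDCs against 79.4 CPM in cDC1, and Irf5 was at 141, 135, 129 and 159 CPM against 441 CPM in cDC1. Irf7, the master factor of interferon induction, was at 919, 881, 715 and 1275 CPM, which did not differ by the test from 976 ± 210 CPM in cDC1 or 983 ± 184 CPM in cDC2, and was higher than in B cells by 1.31 ± 0.20.

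Interferon transcripts themselves were nearly absent. Of 21 interferon features, 18 had 0 UMIs among the 2825982 UMIs of the pDCs, where 3 counts correspond to 1.06 CPM. The 20 type I and type III genes had 7 UMIs in all, 6 of Ifnl2 in 3 libraries and 1 of Ifnb1, and the other filtered cells held 428, of which 389 were Ifnb1. All Ifna genes were at 0 UMIs in pDCs, and reads of this multigene family may be discarded or split by the counting. Ifng had 7 UMIs. The interferon-induced list (24 tested) was low beside cDC2, with 18 genes lower, 1 higher and a median of -1.46, and near the all-gene median against cDC1 (-0.09), migratory cells (-0.18) and B cells (0.13). Against cDC1, migratory cells and B cells 6, 3 and 9 were higher and 4, 7 and 1 lower. Isg15, a ubiquitin-like antiviral protein, was at 478, 716, 609 and 1087 CPM against 1339 ± 278 CPM in cDC2. Ifi44 was the 1 member higher in all 4 comparisons, at 54.1, 47.5, 76.7 and 114 CPM against 33.3 ± 24.7 in cDC1, and its call against cDC1 was lost without cKO 1 (adjusted p = 0.0678).

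**Figure D2:**
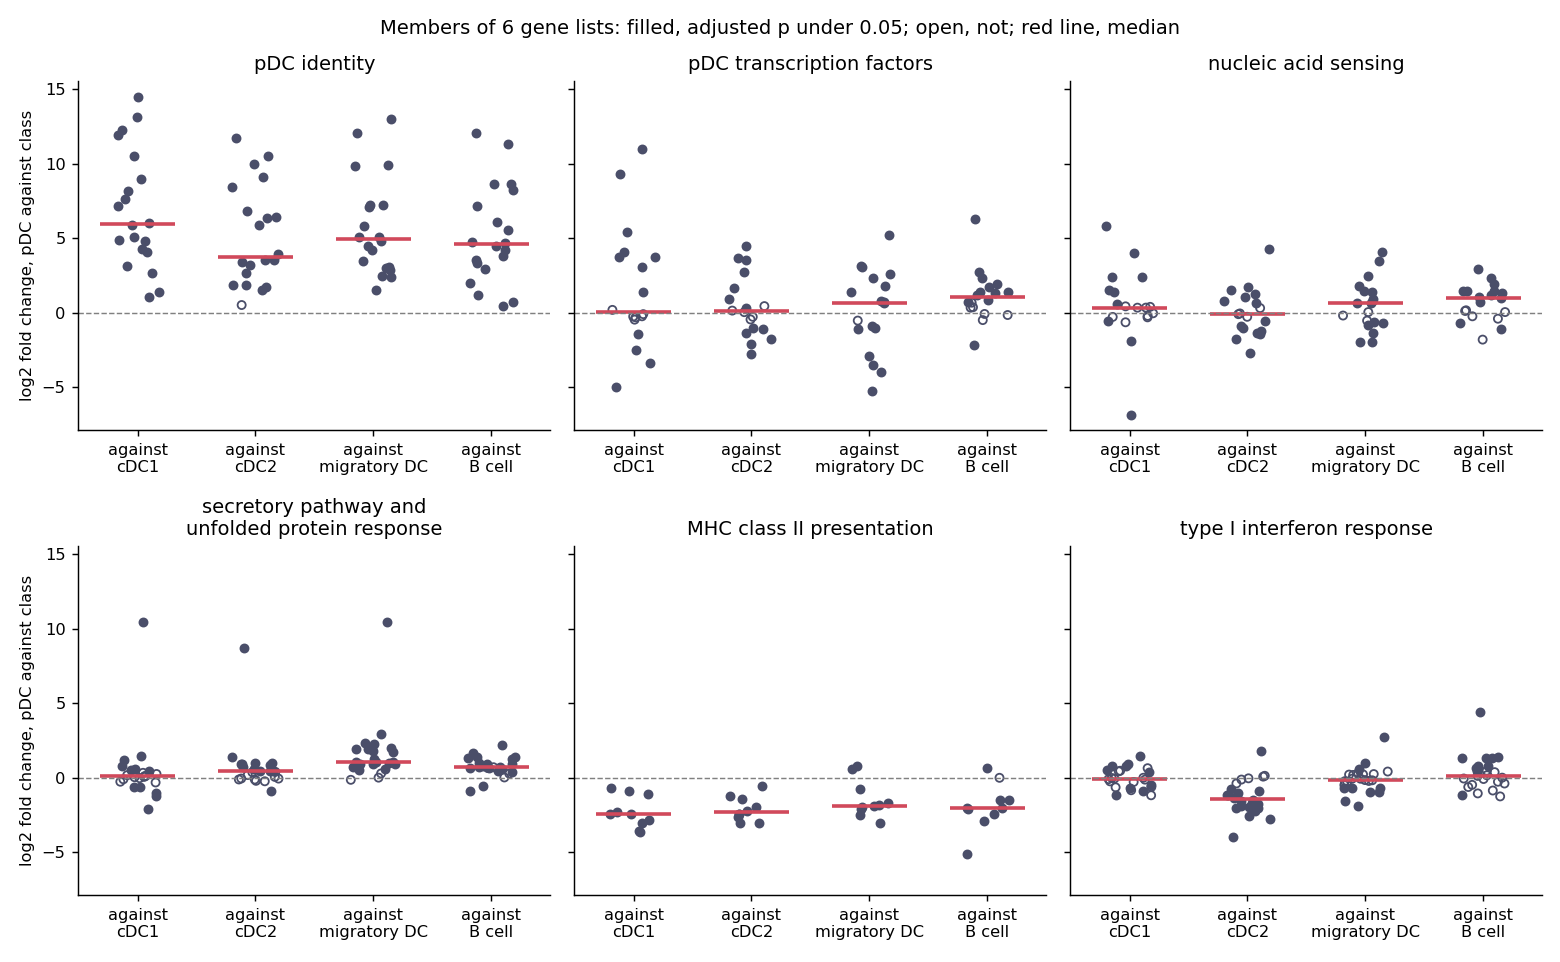
Log2 fold change of pDCs against each class for the tested members of 6 lists, with filled points for genes called at an adjusted p under 0.05 and a red line at the median. The identity genes lie above 0 in every comparison, the MHC class II genes mostly near -2, and the interferon-induced genes lie lowest against cDC2.

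The secretory pathway list (23 tested) was higher mainly beside migratory cells and B cells. In the order cDC1, cDC2, migratory cells and B cells, 7, 12, 20 and 17 genes were higher, 5, 1, 0 and 2 lower, and the medians were 0.10, 0.41, 1.05 and 0.73. Backgrounds over all tested genes were 20.9% to 25.1% higher and 22.0% to 25.5% lower. Xbp1, the transcription factor of the unfolded protein response that secretory cells depend on, was at 502, 510, 605 and 471 CPM against 163 ± 28.7 CPM in cDC1 and 229 ± 16.7 CPM in cDC2, with no overlap between libraries. Its log2 fold changes ran from 0.97 ± 0.18 (cDC2, adjusted p = 0.000119) to 2.96 ± 0.23 (migratory cells). Sec61b, a subunit of the translocation channel, was at 1283, 1206, 1356 and 1089 CPM and was higher by 0.46 ± 0.12 to 1.65 ± 0.13. Spcs2 and Sec11c, of the signal peptidase, were also called in all 4 comparisons, but Spcs2 lost its call against cDC1 without WT 2 (adjusted p = 0.0635) and Sec11c lost its call against B cells in 5 of 13 alternatives. Hsp90b1 (the chaperone GRP94) was at 1049, 957, 1082 and 1106 CPM, not called against cDC1 (0.24 ± 0.22). Mzb1, a chaperone of marginal zone B cells and pDCs, was at 120, 211, 238 and 125 CPM with 0 UMIs in cDC1 and migratory cells.

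Of the UFM1 conjugation genes, 7 of 8 were tested. Against cDC1, cDC2, migratory cells and B cells 1, 2, 2 and 2 were higher and 1, 1, 0 and 0 lower. Of all tested genes 48.3%, 43.8%, 50.6% and 44.4% were called in either direction. With 7 genes, a difference of the list from these shares was not tested. Ufl1 itself was at 15.1, 20.7, 26.9 and 27.5 CPM from 12, 17, 13 and 20 UMIs, and none of its 4 class differences passed the test. Cdk5rap3, a component of the ligase complex, was at 64.2, 65.8, 66.3 and 52.2 CPM and was higher than in cDC2 (0.69 ± 0.18), migratory cells (1.70 ± 0.26) and B cells (1.49 ± 0.22). Ufsp2, a protease that releases UFM1, was lower than in cDC1 by 1.31 ± 0.28 and than in cDC2 by 1.52 ± 0.23 on the log2 scale.

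Antigen presentation genes were the clearest group on the low side. All 10 tested genes of the MHC class II list were lower than in cDC1 and in cDC2, 8 were lower than in migratory cells and 8 than in B cells, with medians of -2.45, -2.33, -1.88 and -2.04. In all 4 comparisons 8 were lower, where 2.03% of all tested genes were. Cd74, the invariant chain, was at 7273, 7290, 6117 and 6030 CPM against 27162 ± 1910 CPM in cDC2 and 24876 ± 2429 CPM in B cells. H2-Aa was at 1882, 1897, 1335 and 1543 CPM against 6584 ± 957 CPM in B cells, the lowest other class, and H2-Ab1 at 1294, 1056, 819 and 1036 CPM against 3658 ± 195 CPM in migratory cells. H2-Eb1 was at 1100, 971, 719 and 916 CPM, lower than in the other classes by 2.42 ± 0.12 to 3.58 ± 0.12 on the log2 scale. No pDC library overlapped any library of another class for these genes. Ciita, the transactivator of the locus, was at 17.6, 15.8, 6.22 and 39.8 CPM, against 55.4 ± 1.15 CPM in B cells.

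The peptide exchange genes broke the pattern. H2-DMa was at 470, 477, 417 and 427 CPM, higher than in migratory cells by 0.55 ± 0.12 and not called against B cells (-0.02 ± 0.12). H2-DMb1, a near-identical neighbour of H2-DMb2 whose reads may be split, was at 319, 281, 197 and 271 CPM and was higher than in migratory cells (0.75 ± 0.18) and B cells (0.62 ± 0.18), calls that were lost with a gate of at least 4 Siglech UMIs (adjusted p = 0.0812 and 0.256). H2-Ob, the inhibitory DO beta chain, was at 10.1, 2.44, 26.9 and 30.2 CPM, against 537 ± 111 CPM in B cells. Cd9, a tetraspanin, was at 15.1, 21.9, 10.4 and 12.4 CPM, and Serpina3g, a protease inhibitor, at 12.6, 17.1, 35.2 and 19.2 CPM, both among the 8 named genes lower than in all classes. Neurl3, an E3 ubiquitin ligase, was at 22.7, 21.9, 6.22 and 19.2 CPM.

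Costimulation followed antigen presentation for 3 receptors and ligands. Cd83, a stabiliser of surface MHC class II, was at 152, 139, 135 and 169 CPM against 773 ± 118 CPM in cDC2 and 1577 ± 289 CPM in migratory cells. Cd86, a CD28 ligand, was at 47.8, 40.2, 29.0 and 39.8 CPM against 137 ± 20.2 CPM in B cells, the lowest other class, and did not overlap it. Cd40 was lower in all 4, although the difference from cDC1 (-0.82 ± 0.30) lost its call without WT 1 or without cKO 1 (adjusted p = 0.0782 and 0.288). Of 15 tested genes in the costimulation and cytokine list, 3 were higher and 3 lower in all 4 comparisons, beside 6.17% and 2.03% of all tested genes. In the order used above, 4, 3, 3 and 4 were higher and 5, 9, 11 and 3 lower, with medians of 0.00, -1.39, -3.22 and -0.15. Backgrounds over all tested genes were 24.0%, 20.9%, 25.1% and 22.5% higher and 24.3%, 22.9%, 25.5% and 22.0% lower.

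The higher 3 encode secreted proteins. Ccl4, an inflammatory chemokine, was at 1868, 2572, 2894 and 3089 CPM against 824 ± 119 CPM in cDC2, with log2 fold changes of 1.34 ± 0.42 to 3.04 ± 0.45, and its call against cDC1 was lost without WT 2 (adjusted p = 0.0666). Tnf was at 71.7, 145, 174 and 272 CPM, and its calls against cDC2 and migratory cells were each lost in 6 of 13 alternatives. Il12a, the p35 subunit of interleukin 12, was at 42.8, 20.7, 26.9 and 48.1 CPM, with 0 UMIs in cDC1 and migratory cells. Its partner Il12b had 0 UMIs in pDCs and 632 CPM in migratory cells. Among 10 tested inhibitory genes, Lag3, an inhibitory receptor that binds MHC class II, was higher in all 4 comparisons, at 303, 408, 278 and 284 CPM against 22.8 ± 1.51 CPM in cDC2. A Lag3 UMI was found in 83.4% of pDCs (42.7% thinned), 14.9% of cDC2 (4.26% thinned) and 0.818% of B cells (0.360% thinned, medians 2972 to 3758 UMIs). Cd274, which encodes PD-L1, was at 18.9, 26.8, 41.5 and 41.2 CPM against 432 ± 113 CPM in migratory cells, and Pdcd1lg2 had 1 UMI. The inhibitory list had 4, 1, 4 and 3 genes higher and 1, 6, 4 and 3 lower, with medians of 0.78, -0.63, -0.01 and 0.24. Beside it stand backgrounds of 20.9% to 25.1% higher and 22.0% to 25.5% lower.

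Of 16 homing and growth factor receptors, Ccr9 was among 2 higher in all 4 comparisons, while 9, 5, 8 and 10 were higher and 2, 4, 5 and 4 lower in each (medians 0.77, -0.06, 0.47 and 0.98). Over all tested genes 6.17% were higher in all 4, and in each comparison 20.9% to 25.1% were higher and 22.0% to 25.5% lower. Cxcr3 was at 31.5, 40.2, 33.2 and 24.7 CPM, similar in level to cDC1 (26.3 ± 5.95, difference 0.03 ± 0.28) and above cDC2 by a log2 fold change of 5.98 ± 0.41. S1pr1, the egress receptor, had 0 UMIs in pDCs and 127 CPM in B cells.

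Lymphoid genes formed a second shared feature. Of 16 B lineage genes, 8 were higher in pDCs than in cDC1, 8 than in cDC2 (2 were lower) and 8 than in migratory cells, and all 16 were lower than in B cells (median -5.57, against 1.98, 2.02 and 2.26 in the other comparisons). Backgrounds were 24.0%, 20.9% and 25.1% higher, and 22.0% lower than in B cells. Only 7 of the 16 passed the filter on low counts, which drops genes with few UMIs, in the pDC sums alone. The rest may have entered through classes where they are higher, so the count against B cells is partly set by the filter. Ighm was at 368, 275, 381 and 309 CPM against 704 ± 121 CPM in B cells and 70.5 ± 2.54 CPM in cDC2, and Cd37, a tetraspanin, at 345, 452, 460 and 444 CPM against 1094 ± 47.6 CPM in B cells. Cd79b was at 25.2, 28.0, 26.9 and 30.2 CPM, against 958 ± 27.9 CPM in B cells and 5.98 ± 2.33 CPM in cDC2. The defining B cell genes Pax5 and Vpreb3 had 0 UMIs and Ebf1 had 2. Igkc varied from 23.3 CPM in cKO 2 to 251 CPM in WT 2 and Iglc2 from 2.07 CPM in cKO 1 to 186 CPM in WT 2. The 8 plasma cell genes, none tested, summed to 9.62 to 14.5 CPM.

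Of 6 tested lymphoid progenitor genes, 4 were higher in all 4 comparisons, beside 6.17% of all tested genes: Dntt, Ly6d, Cd7 and Notch1. The medians were 7.35, 2.49, 4.06 and 4.31. Cd7 was at 1055, 893, 848 and 1060 CPM, but cDC2 had 554 ± 46.3 CPM and the call against them (0.58 ± 0.19) was lost with DESeq2 and without WT 1. Notch1 was at 50.3, 34.1, 53.9 and 75.5 CPM against 14.6 ± 5.00 CPM in B cells. Il7r was at 169, 179, 211 and 152 CPM, above B cells and cDC2, and 223 ± 47.4 CPM in migratory cells.

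Some genes usually listed for other myeloid cells were high. Ly6c2, a monocyte antigen with near-identical Ly6 paralogs, was at 5927, 6333, 6573 and 5113 CPM against 884 ± 193 CPM in cDC2 (2.63 ± 0.37, adjusted p = 2.94e-06). Clec10a, a lectin of the cDC2 list, was at 365, 334, 365 and 264 CPM and was not called against cDC2 (0.29 ± 0.14). All 10 cDC1 genes were lower than in cDC1 (median -5.47) and all 10 migratory genes lower than in migratory cells (median -7.36). Of each list only 4 genes passed the filter on low counts in the pDC sums alone, so these 2 counts are partly set by the filter. Of the 9 tested cDC2 genes, 4 were lower and 1 higher than in cDC2, and of 6 transitional dendritic cell genes 4 were lower than in cDC2 and none higher. Against cDC2, the NK cell list (6 tested) had 2 genes higher and 3 lower, the macrophage list 1 and 2 of 5, the monocyte and neutrophil list 1 and 2 of 5, and the stress and heat shock list 1 and 12 of 15 (medians -0.21, -0.88, -1.02 and -1.26). Of all tested genes 20.9% were higher and 22.9% lower than in cDC2, and with so few genes in most of these lists a difference from those shares was not tested. The 13 markers of endothelial, epithelial and other cells outside the immune lineage summed to 65.9 to 84.3 CPM.

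All 15 tested cell cycle genes were lower than in cDC1 (median -3.46), where 24.3% of all tested genes were lower. Against cDC2, migratory cells and B cells 2, 4 and 4 were lower and none higher (medians -0.24, -0.43 and -0.84), beside backgrounds of 22.9%, 25.5% and 22.0%. Only 5 of the list passed the filter on low counts in the pDC sums alone. The rest may have entered through classes where they are higher, so these counts of lower genes are partly set by the filter. Mcm3, a replication helicase subunit, was at 8.81, 7.31, 4.15 and 2.75 CPM and Tubb5 at 312, 317, 315 and 249 CPM, the pair lower in all 4 comparisons. Top2a, a topoisomerase of dividing cells, had a UMI in 5 of 307 pDCs (1.63%, 0.662% thinned) and in 3.55% of cDC2 (0.672% thinned).

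The pDCs varied with the number of Siglech UMIs, a description of the gate and its edge with no test. There were 21 cells with 2 Siglech UMIs, 15 with 3, 64 with 4 to 9, 118 with 10 to 19 and 89 with 20 or more. Over these bands the summed level of Ccr9 was 60.7, 299, 411, 755 and 854 CPM, and Ly6d ran 34.7, 605, 1686, 3288 and 4081 CPM. Cox6a2 was at 26.0, 276, 664, 1157 and 1599 CPM, and Irf8 at 165, 743, 1623, 1935 and 2479 CPM. Spi1, the myeloid factor PU.1, ran the other way, at 612, 490, 278, 160 and 103 CPM. The summed level of Cd74 was 14488, 16126, 5976, 5609 and 5201 CPM, while its median per cell was 57, 46, 25.5, 34 and 37 UMIs. For H2-Aa the sums were 4521, 5784, 1237, 1341 and 1082 CPM and the medians per cell 2, 3, 1, 3 and 3 UMIs. The high H2-Aa sums below 4 Siglech UMIs were therefore not those of the median cell. For Cd74 the medians below 4 Siglech UMIs (57 and 46) were also above the rest, in cells that were deeper (median 10564 and 9726 UMIs, against 7809, 8095 and 9267). Of the 21 cells at the threshold, 10 had no UMI of Cox6a2, Klk1 or Ccr9, 10 of the 21 came from cKO 2, and their median was 10564 UMIs. Just outside, 53 cells with 1 Siglech UMI that met every other term had Ccr9 at 68.2 CPM, Ly6d at 47.0 CPM and Cd74 at 25107 CPM, with medians of 222 Cd74 and 83 H2-Aa UMIs per cell. By summed level the cells at 2 UMIs were close to those outside in Ccr9, Ly6d, Cox6a2 (26.0 and 22.7 CPM) and Spi1 (612 and 628 CPM). Klk1 (4.34 and 36.4 CPM) and Irf8 (165 and 379 CPM) were lower than outside. Summed Id2 was near that of the other pDCs (60.7 CPM, against 343 outside), but its median was 0 UMIs per cell on both sides. H2-Aa was near the other pDCs by the median per cell and not by the sum. There were 7 further cells that had at least 2 Siglech UMIs but no Tcf4. The 271 cells with at least 4 Siglech UMIs gave 3720, 3498, 3871 and 3334 called genes against cDC1, cDC2, migratory cells and B cells, close to 3745, 3394, 3923 and 3442 for all 307.

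**Figure D3:**
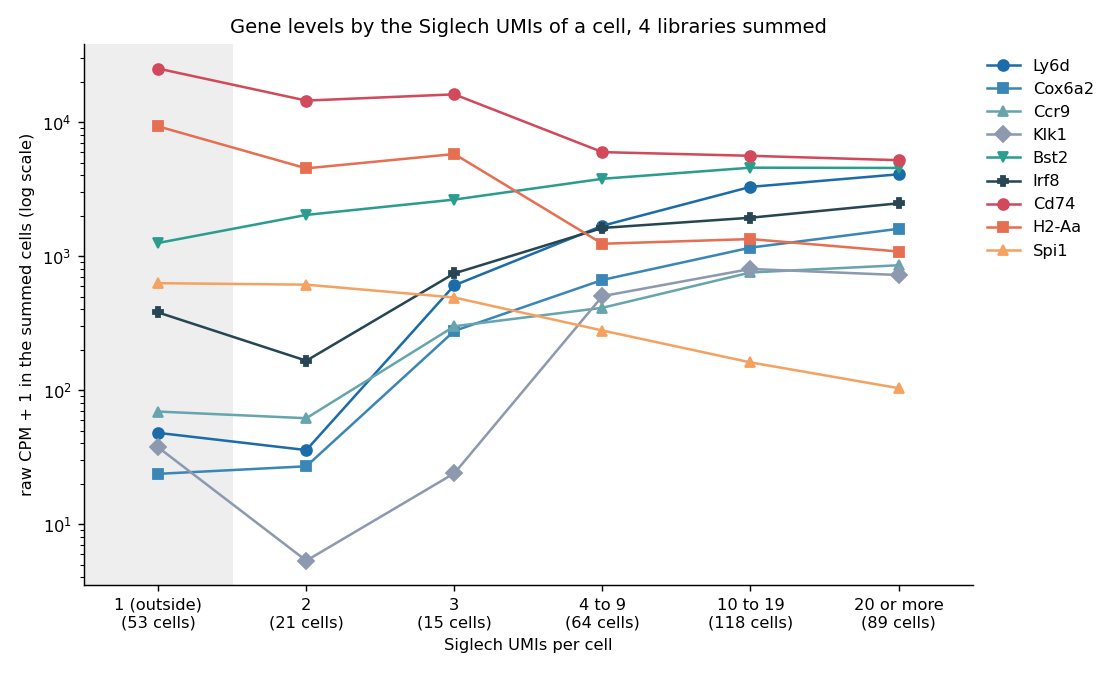
Summed level of 9 genes (raw CPM plus 1, log axis) by the number of Siglech UMIs in a cell, over the 4 libraries together, with the cells outside the gate shaded. Ly6d, Cox6a2 and Ccr9 are low in the 21 cells with 2 UMIs and high from 10 UMIs on, Spi1 runs downwards, and the sums of Cd74 and H2-Aa are higher below 4 UMIs than above.

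The share of pDCs among filtered cells was 1.21%, 0.962%, 0.643% and 0.988%, so the genotypes overlapped, with a mean of 1.09% ± 0.176 in WT and 0.815% ± 0.244 in cKO (SD, n = 2 each, two-sided exact permutation p = 0.667). The smallest p this design allows is 0.333, so the test cannot show a difference at 0.05. Both cKO libraries lay below both WT libraries (exact permutation p = 0.333) with at least 4 Siglech UMIs (1.05% and 0.887% against 0.605% and 0.813%), with stricter limits on cells (1000 genes, 10% mitochondrial), without Lyz2-rich pDCs and with marker-positive pDCs only. The 95% Clopper-Pearson interval, which covers counting error only, was 0.972 to 1.49% in WT 1 and 0.478 to 0.847% in cKO 1. Among gated dendritic cells the shares were 16.7%, 20.9%, 13.3% and 24.2%, so the cKO libraries lay on both sides of the WT libraries (18.8% ± 2.96 against 18.7% ± 7.76, exact permutation p = 1.0). That difference of -0.0421 points turned to 2.05 points without WT 2 and to 5.44 without cKO 1.

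**Figure D4:**
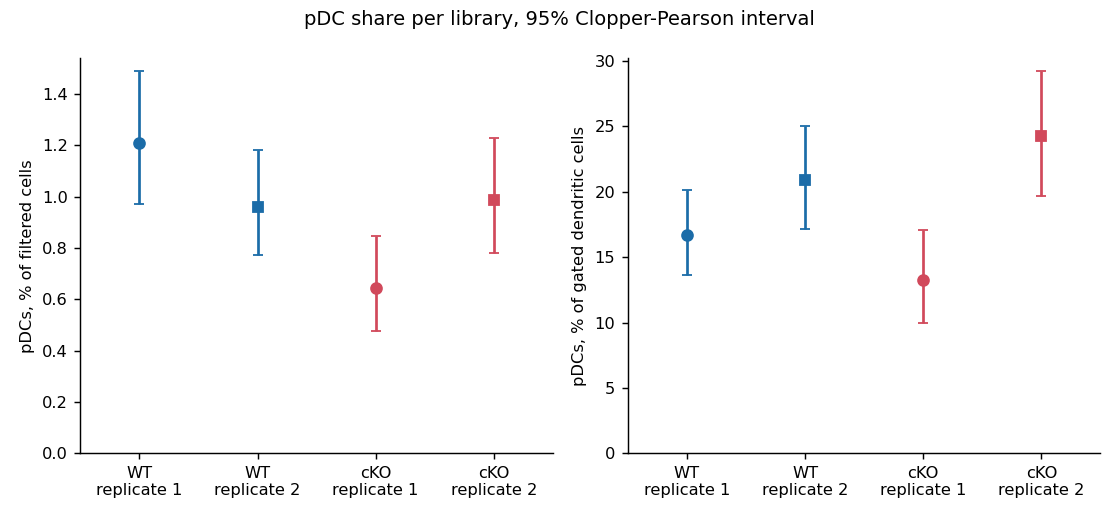
Share of pDCs per library among filtered cells and among gated dendritic cells, in percent, with 95% Clopper-Pearson intervals. The library cKO 1 is lowest in both panels and cKO 2 is highest among dendritic cells.

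Between genotypes, 0 of 6878 tested genes (0.0%) were called in pDCs by edgeR, with 270 at an unadjusted p under 0.05, and 0 by DESeq2, with 53. The level of Ufl1 in pDCs was not lower in the cKO libraries (0.58 ± 0.38, adjusted p = 0.998). Where the deleted exons lie is not given in the labels, so 3' tags do not check the deletion. The 5 genes with the smallest p were Il4i1, Hilpda, Daxx, Tmem176b and Calm4, each with an adjusted p of 0.998 and no overlap between groups. Without overlap stood 32.2% of all tested genes (14.8% with both cKO libraries above and 17.4% below), which is the background for every such count below.

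Il4i1, an enzyme that oxidises phenylalanine and tryptophan, was at 17.6, 23.1, 53.9 and 76.9 CPM (log2 fold change 1.68 ± 0.33), and Tmem176b, a dendritic cell membrane protein, at 106, 113, 211 and 199 CPM (0.89 ± 0.19). Both differences shrank in the 289 pDCs with a UMI of Cox6a2, Klk1 or Ccr9, to 0.64 and 0.02. Other choices of cells did not do so for both genes. With at least 4 Siglech UMIs the differences were 1.35 and 1.05. They were 2.09 and 1.05 with the highest doublet scores removed, and 2.11 and 1.04 without pDCs with 5 or more Lyz2 UMIs. Hilpda, a hypoxia-induced lipid droplet protein, was at 36.5, 53.6, 12.4 and 8.24 CPM (-2.17 ± 0.43), and Daxx, a histone chaperone, at 85.6, 79.2, 143 and 190 CPM (1.01 ± 0.21). Calm4 was at 29.0, 15.8, 0 and 2.75 CPM, from 38 UMIs in all. Klk1, named above between classes, was lower in both cKO libraries (-0.70 ± 0.18) without passing the test, and Bst2 had a difference of -0.01 ± 0.16. Leaving out 1 library changed the count of called genes from 0 to 15 without WT 1, 17 without WT 2, 118 without cKO 1 and 45 without cKO 2, fits in which the lone library of a genotype is taken to vary like the pair. No gene was called in all 4 of these fits, and 9 were called in 3.

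By lists, the pDC identity genes lay level (median -0.03, 2 of 20 above and 4 below without overlap). The UFM1 conjugation genes had a median of 0.10, the secretory genes 0.07, the transcription factors 0.14 and the sensing genes 0.04. Costimulation stood at 0.22, homing receptors at -0.06 and the inhibitory list at -0.05. The MHC class II list had a median of -0.22, with 6 of 10 below and 2 above: H2-Aa at 1882 and 1897 CPM in WT and 1335 and 1543 CPM in cKO (-0.40 ± 0.17), and H2-Ob in the other direction (2.18 ± 0.55). None of these passed the test, and the median moved to -0.06 with the highest doublet scores removed.

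The interferon-induced list had a median of 0.49, with 20 of 23 positive, 7 above and 0 below without overlap. This rests on cKO 2: the list summed to 4132, 4658, 4065 and 6731 CPM, and the median was -0.28 without cKO 2 and 0.84 without cKO 1. It summed to 3294, 3209, 3927 and 5575 CPM in cDC1 and to 6990, 7992, 7500 and 10798 CPM in cDC2. In migratory cells the sums were 3921, 3318, 4414 and 7714 CPM, and in B cells 2788, 3781, 2271 and 4426 CPM. The sum was thus highest in cKO 2 in every class, and the rise was not particular to pDCs. Ifit3 was at 41.5, 43.8, 31.1 and 212 CPM, high in that library alone, and its log2 fold change of 1.57 ± 0.59 became -0.45 without it. Per cell, the median summed level was 28.5, 35.8, 22.3 and 41.7 per 10000 UMIs.

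The stress and heat shock list moved the same way. Its 15 genes were all positive, 6 without overlap, with a median of 0.27 that became -0.02 without cKO 2 and 0.81 without cKO 1. The list summed to 16297, 17704, 18074 and 27682 CPM, and its per-cell median was 122, 125, 121 and 199 per 10000 UMIs. Hspa1b, an inducible HSP70 gene with the near-identical copy Hspa1a, was at 2034, 1469, 2730 and 3684 CPM. Jun, an immediate early gene, was at 418, 750, 566 and 1349 CPM, and its log2 fold change of 0.69 ± 0.37 became -0.05 without cKO 2. In the same library the macrophage genes were highest (3096 CPM) and Xist was present, and the part of either in these lists was not tested. Without pDCs with 5 or more Lyz2 UMIs the log2 fold changes of Ifit3, Isg15, Hspa1b and Jun were 2.28, 0.51, 1.04 and 1.25. With all pDCs they were 1.57, 0.49, 0.87 and 0.69.

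The NK cell list (6 tested) had a median of -1.30, with 6 of 6 negative and 5 below without overlap, and it summed to 428, 621, 328 and 315 CPM. Gzma was at 21.4, 101, 10.4 and 5.49 CPM and Nkg7 at 16.4, 31.7, 4.15 and 8.24 CPM. In 1 cell of WT 2 the list reached 210 per 10000 UMIs, where the median pDC had 2.57. With the highest doublet scores removed, Gzma and Nkg7 were no longer among the tested genes. The median of the members left was -0.53, so it is not over the same genes as -1.30. The T cell list was highest in WT 2 (638 CPM) and lowest in cKO 2 (194 CPM), and neither list passed the test for any member.

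The genotype difference in pDCs was also set against that in cDC2 of the same libraries. Of 8829 genes 0 (0.0%) were called different by edgeR (321 at an unadjusted p under 0.05) and 0 by DESeq2 (36). Without the filter on low counts 27 were called, and leaving out WT 1, WT 2, cKO 1 and cKO 2 gave 16, 0, 77 and 48.

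**Figure D5:**
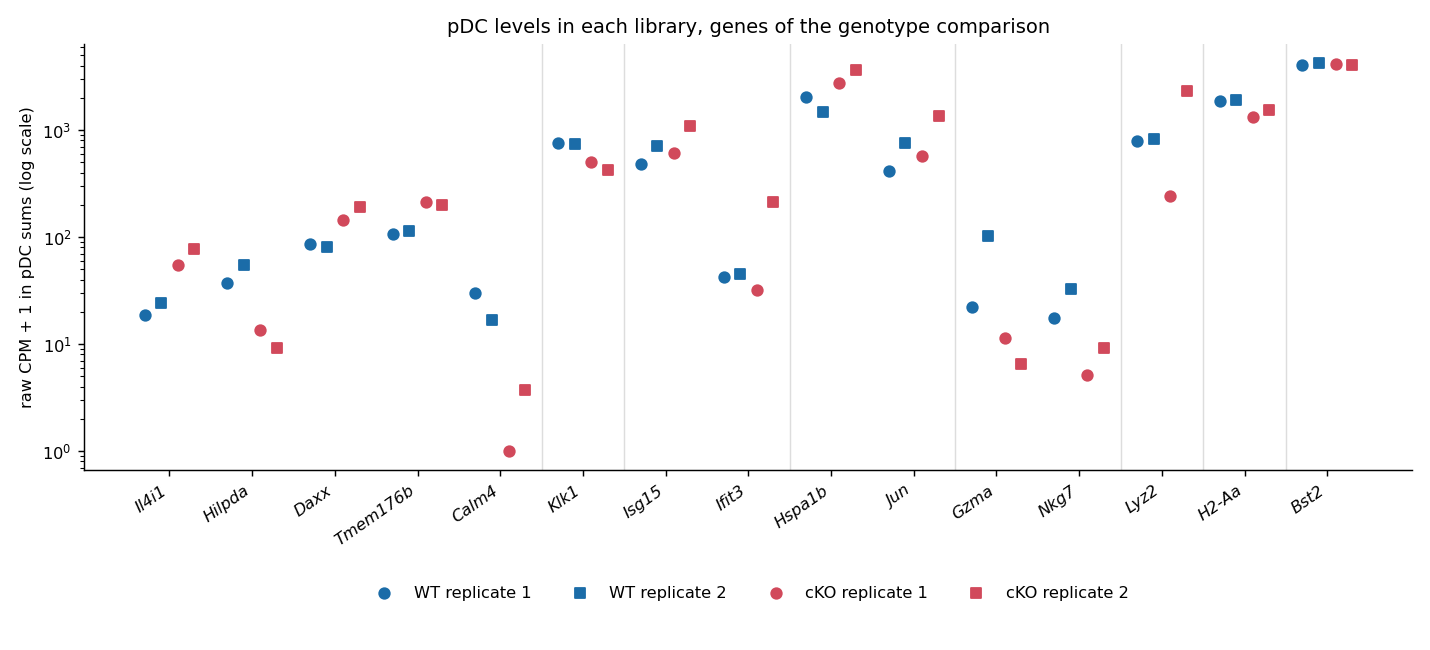
Level of 15 genes in the pDC sums of each library (raw CPM plus 1, log axis), with colour for genotype and shape for replicate. Il4i1, Daxx and Tmem176b are higher and Hilpda and Klk1 lower in both cKO libraries, none past an adjusted p of 0.05, and Ifit3, Jun and Lyz2 are highest in cKO replicate 2.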

How the data were processed

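Gene-by-cell matrices of UMI counts (deposited by the authors) were read for 4 libraries. Cell Ranger 6.1.1 wrote them, per the file headers, from 3' v3.1 libraries, per the labels' protocols. The submitters' processing notes name CASAVA 1.8 and Seurat. The genome build is not given in the sources used here. Of 31253 features, 31184 matched GENCODE M21 by ID.

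Of 32801 barcodes 32396 were kept. Raw UMIs were summed per library and gated class (64047816 to 79639674 UMIs per library over all kept cells) and tested with edgeR 4.0.16 (TMM, filterByExpr, quasi-likelihood, adjusted p under 0.05): 5 classes with library as a block, genotype on the 4 pDC sums, and their interaction with cDC2. DESeq2 1.42.0 was an alternative. Fold changes against near-empty classes use 3 counts over the class. The 15 and 8 genes named between classes are those with the widest margin over all 4 classes and at least 50 CPM in pDCs or in every other class, and by genotype the 5 with the smallest p. The members and the 25 lists were chosen with earlier results of these data known. Genes printed from lists illustrate each list and were picked after their values were seen. Scrublet called 0 doublets in every library and so gave no usable cut, and removing its highest scores (0.8% per 1000 cells) left 279 pDCs. Detection shares were also taken after thinning to 2000 UMIs. The labels do not say whether a replicate number marks libraries that belong together. The difference between the WT libraries and that between the cKO libraries had a correlation of -0.0184 over 6882 genes. A single correlation of this kind cannot show that no batch was shared. The scripts were tested on simulated data. Alternatives without Lyz2-rich pDCs, with marker-positive pDCs only and without shared barcodes were added after seeing the data.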

Additional observations from a re-analysis of the deposited data

How the results depend on the processing

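Between classes, all 52 alternative counts of called genes stayed within 1.5 times the reported ones, and of 1184 alternatives for the 23 named genes 19 lost a call, all with DESeq2. Of 8075 alternatives for 624 called list comparisons, 271 lost the call and 7 changed sign. By genotype, leaving out 1 library gave 15 to 118 called genes in place of 0, and the difference from cDC2 gave 0 to 77. For that difference, 27 genes were called with no filter on low counts, 1 with the highest doublet scores removed and 2 without pDCs with 5 or more Lyz2 UMIs. The fit with a replicate block, for libraries that share a number only, called 0 genes. With genes of chromosomes X and Y left out 0 were called. Of 70 alternatives for the 5 named genes, 8 passed the threshold, all with 1 library left out. The share of dendritic cells changed sign to 2.05 points without WT 2 and 5.443 without cKO 1 (range without 1 library -5.53 to 5.44), and the share of filtered cells ranged from -0.443 to -0.0988. Without cKO 2, Ifit3 turned to -0.451 and Jun to -0.051. Ifit3 reached 2.286 without cKO 1 and Jun 1.232 without WT 2. Of 234 alternatives for 18 list medians by genotype, 10 moved by over 1 SD of the members. The cause of these changes was not tested. With 482401 to 821110 UMIs per pDC sum, 3 counts are 3.65 to 6.22 CPM in a library, and lower levels were not resolved.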
